A study of Mus musculus with 12 samples.

Results

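The 62 genes described here encode parts of the axoneme, the microtubule core of the sperm flagellum, and were read in testis RNA of C57BL/6 mice. They were chosen by name, not by level. The names were those of dynein heavy, intermediate and light chains (Dnah, Dnaic, Dnal, Dnali1), radial spoke genes (Rsph), the Cfap series and tektins (Tekt). Genes named for the dynein regulatory complex (Drc) and Ccdc39, Ccdc40, Spag6, Spag16, Spag17, Spef2 and Hydin were also taken. Axoneme parts that carry other names were not among them. The chosen genes were 62 of 24516 genes with a symbol and stood on 17 chromosomes. Their reads were summed over 252 transcripts, of which 79 matched a reference transcript exactly and 173 were assembled isoforms that shared a splice junction with one. The series held 12 libraries of ribosome-depleted total RNA, from testes of male mice, with 3 libraries at each age of 3, 6, 12 and 18 months (3M, 6M, 12M and 18M). All mice were wild type, of this 1 inbred strain and untreated as far as the labels say. The labels do not say that the 3 libraries of an age came from separate mice, but the paper calls them biological replicates.

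The axoneme is a ring of microtubule doublets around a central apparatus. Dynein arms on each doublet walk along the next one and so bend the tail, radial spokes and the central apparatus pace them, and the nexin-dynein regulatory complex ties the doublets together. In the testis these genes are mainly transcribed in meiotic and post-meiotic germ cells, which build the flagellum before they leave as sperm. Motile cilia of the airway and the oviduct have the same plan but use other copies of some subunits.

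The libraries held 50924104 to 71803379 reads, as summed from the transcript table. The 62 genes took 1.23% to 1.36% of them. Round spermatid markers (Acrv1, Spaca1, Spaca3, Tssk1, Catsper3 and Izumo1) summed to 776 to 1061 CPM (counts scaled to equal library size) and elongating spermatid markers (Tnp1, Tnp2 and Prm1 to Prm3) to 11194 to 16895 CPM. The 5 markers found of multiciliated epithelium summed to 3.73 to 5.08 CPM, with 1 of them at 0 in every library, and 8 epididymal markers to 0.131 to 0.577 CPM, with 2 at 0 in every library. Ccno made up most of the multiciliated sum (3.88 ± 0.412 CPM at 3M, 4.15 ± 0.113 at 18M; 1.97 FPKM), above Dnah9, Dnah5 and Dnah11 in FPKM. Gmnc was at 0.293 ± 0.0836 CPM at 3M and 0.447 ± 0.190 CPM at 18M.

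Promoter windows of 300 bases, from 250 before to 50 after a transcription start, were found in RefSeq on GRCm38.p6 for 55 of the 62 genes. A pair of sites tied by textbook knowledge to ciliary and spermatid genes were searched on both strands: the X-box of the RFX factors, as the pattern GTNNCCNNNGNAAC, and the cyclic AMP response element of CREM, as TGACGTCA. The X-box pattern stood in the windows of 8 of 55 genes (14.5%), against 673 of 27025 genes with a window (2.49%). Its shorter core GTTGCC, which a match of the full pattern can contain, stood in 21 of 55 (38.2%) against 14.1%, and 4 genes had both. The CRE stood in 1 of 55 (1.82%), Dnah6, against 2.03%. The matches of 5 genes that are described below, 1 of them the outer arm chain Dnah17, are shown with 8 bases on each side, on the strand of the gene, with the pattern or its reverse complement in capitals.
Dnah17 (chr11:118129357-118129386, minus strand): acgcccttGTCACCAGCGCAACcacagata
Cfap206 (chr4:34730208-34730237, minus strand): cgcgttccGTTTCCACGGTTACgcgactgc
Cfap44 (chr16:44394764-44394793, plus strand): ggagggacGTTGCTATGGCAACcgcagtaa
Hydin (chr8:110266948-110266977, plus strand): actctgcgGTTGCTGTGGCAACagatggta
Spag16 (chr1:69826859-69826888, plus strand): ggcaacgcGTTGCCGTAGTAACtgcggacg
The first base of the match lay 159 bases before the start in Dnah17, 103 in Spag16 and 21 to 27 in Cfap206, Cfap44 and Hydin. The other 3 genes with a match were Cfap45, Cfap61 and Tekt4. The median level was 53.4 FPKM for the genes with the pattern and 45.6 FPKM for those without. FPKM gives fragments scaled by transcript length and library size. For the shorter core GTTGCC the medians were 31.4 FPKM with a match and 53.2 FPKM without. Neither difference was tested. A match is a description of the letters and not a mapped binding site.

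Nearly all axoneme genes were well expressed. Levels are compared between genes on the FPKM scale, summed over the transcripts of a gene, as mean ± SD of the 12 libraries. Their median was 47.1 FPKM against 1.55 FPKM over all genes with a symbol. In all, 58 of 62 lay at 1 FPKM or more, as did 54.6% of all genes with a symbol, 53 lay at 10 or more and 10 at 100 or more. The 5 highest were Rsph1 at 684 ± 42.1, Cfap206 at 291 ± 13.9, Cfap36 at 260 ± 12.3, Tekt1 at 228 ± 11.6 and Tekt2 at 214 ± 14.7 FPKM. The 5 lowest were Dnal1 at 4.92 ± 0.232, Dnah9 at 0.529 ± 0.0435, Dnah5 at 0.307 ± 0.0564, Rsph4a at 0.123 ± 0.0365 and Dnah11 at 0.109 ± 0.0147 FPKM. Of these 5, Dnah9, Dnah5, Rsph4a and Dnah11 are the copies known from motile cilia rather than from sperm. Across the 12 libraries the levels were steady: among the 58 genes at 1 FPKM or more the median coefficient of variation was 7.13%, and the highest was 20.4% (Dnal4).

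**Figure D1:**
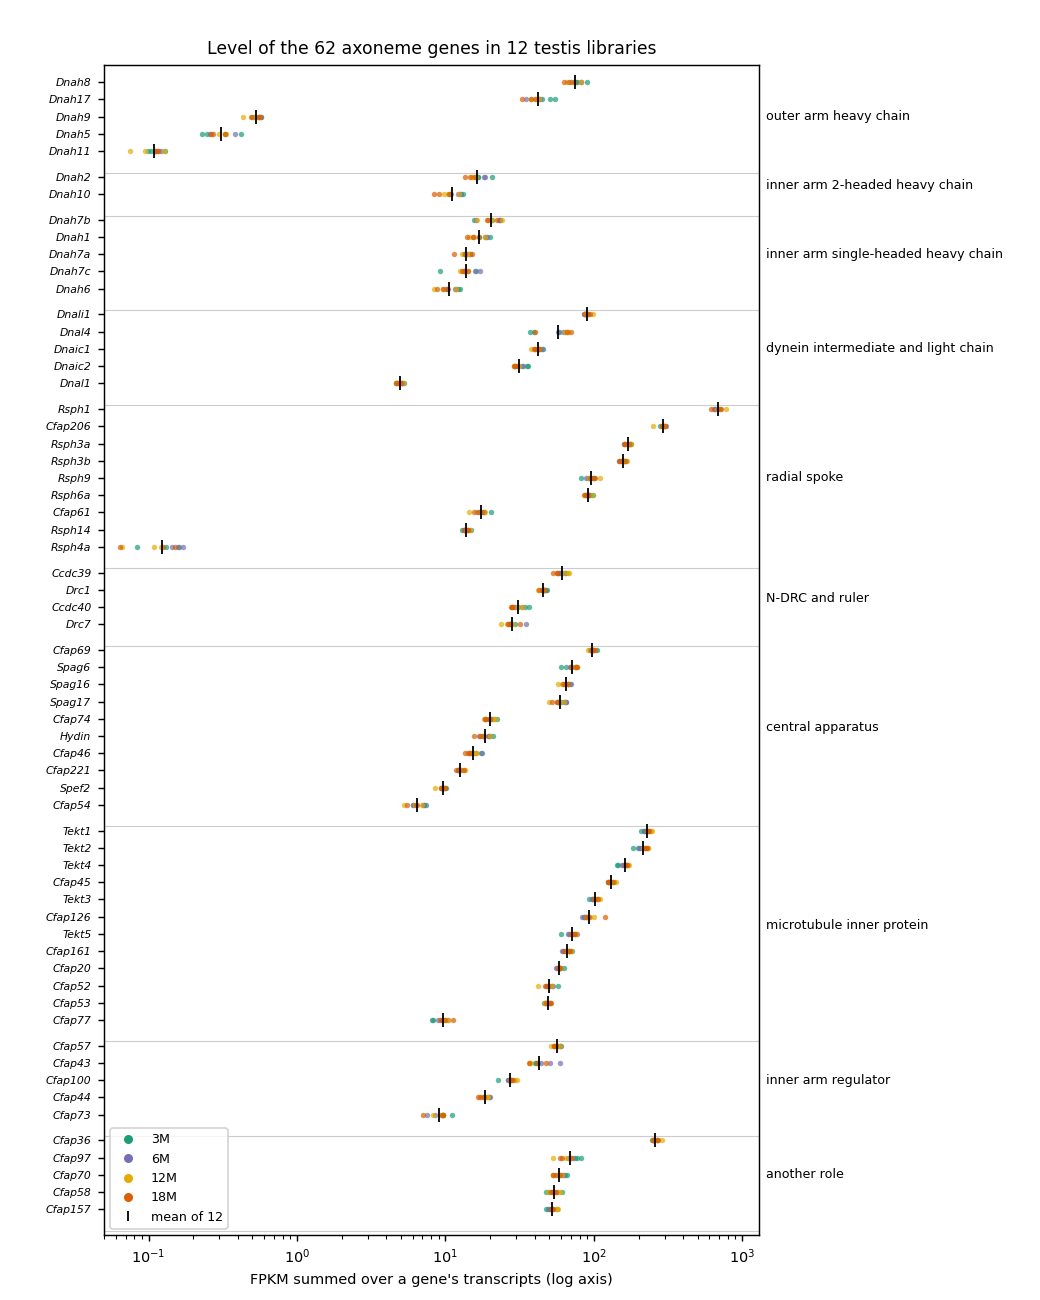
Level of the 62 genes by role. The log axis gives FPKM summed over a gene's transcripts, each point is 1 of 12 libraries coloured by age, and the vertical tick is their mean. Dnah9, Dnah5, Dnah11 and Rsph4a lie under 1 FPKM in every library, while all other genes lie above 4.

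The outer dynein arm heavy chains, the large motor proteins of the outer row, fell into separate levels. Dnah8, the outer arm heavy chain of sperm, stood at 75.1 ± 7.94 FPKM (lowest 63.0, median 74.3, highest 90.5), and Dnah17, its sperm partner, at 41.9 ± 6.26 FPKM (lowest 32.8, median 41.8, highest 54.8). The ciliary counterparts Dnah5 and Dnah9 ranged from 0.228 to 0.417 and from 0.430 to 0.574 FPKM, and Dnah11, a further ciliary chain, from 0.0751 to 0.129 FPKM. The ranges of the sperm and the ciliary chains did not come near each other in these libraries. Within a library, Dnah8 was 185 to 397 times as high as Dnah5 (253 ± 60.4), and Dnah17 was 60.1 to 111 times as high as Dnah9 (79.8 ± 14.5). From exact-match transcripts alone the levels were 54.6 FPKM for Dnah8 and 2.02 FPKM for Dnah17, with Dnah5 and Dnah9 unchanged, and the ratios of the mean levels were 178 and 3.82. The size of the gap between Dnah17 and Dnah9 thus rests on the assembled isoforms. No stretch of 100 nt was shared between Dnah5 and Dnah8 or among Dnah9, Dnah11 and Dnah17 in the annotated transcripts, so reads would not pass between these copies over such a length.

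The low chains still held reads, a mean of 442 per library for Dnah9, 290 for Dnah5 and 93.7 for Dnah11. These reads were not spread evenly. With the reference transcript cut into 3 equal parts, the mean coverage of Dnah9 was 0.303 reads per base in the 5′ part and 7.97 in the 3′ part, a ratio of 26.3. The same ratio was 4.54 for Dnah8 (177 against 801 reads per base) and 2.49 for Dnah17 (118 against 294). Dnah5 went from 0.932 to 2.90 and Dnah11 from 0.178 to 1.32 reads per base. The low FPKM of Dnah9 was thus carried by the 3′ part of the gene, on the minus strand at chr11:65831324-66168551 of mm10. All 12 heavy chains had more coverage in the 3′ than in the 5′ part, though the coverage of Dnah17 was 582 reads per base at 85.8% of its length and 4.30 from 92.5% on, while the short tektin Tekt2 had 1203 and 1264 reads per base in the 5′ and the 3′ part.

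**Figure D2:**
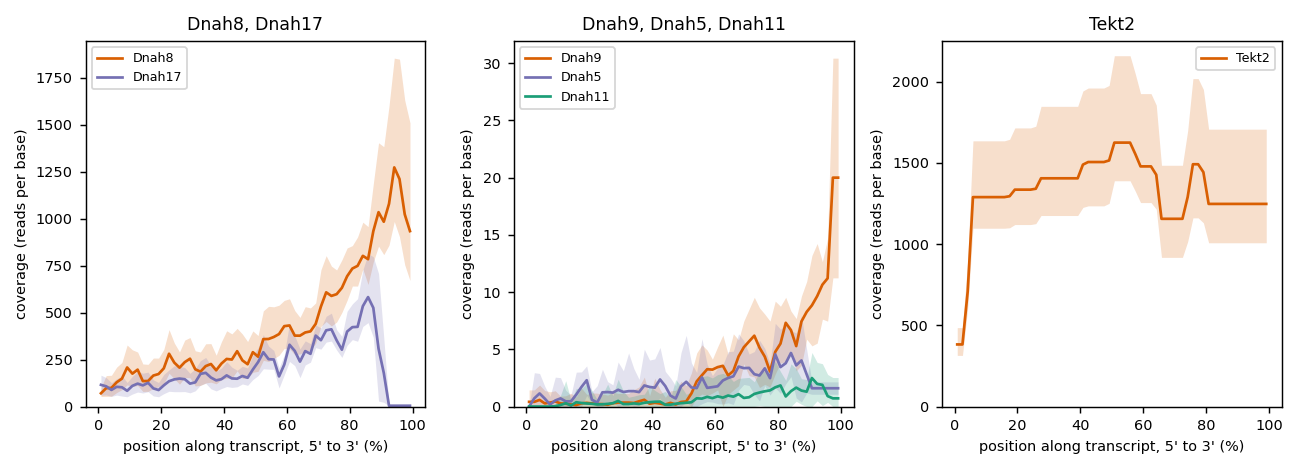
Coverage from the 5′ to the 3′ end of the reference transcript, in reads per base. Lines are the means of 12 libraries and bands their lowest to highest values. Coverage of Dnah8 rises toward the 3′ end, that of Dnah17 rises to 582 at 85.8% of the length and is 4.30 in the last bins, Dnah9 is near 0 in its 5′ part, and Tekt2 stays near its mean past the first bases.

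The inner arm heavy chains were lower and closer together. Dnah2 (16.3 ± 1.91 FPKM) and Dnah10 (11.0 ± 1.53 FPKM) form the 2-headed inner arm. The chains of single-headed arms were Dnah7b (20.3 ± 3.04), Dnah1 (16.9 ± 2.04), Dnah7a (13.8 ± 0.992), Dnah7c (13.8 ± 2.01) and Dnah6 (10.6 ± 1.36 FPKM). The 3 Dnah7 copies, all on chromosome 1, shared 100-nt stretches over 12.3% to 17.2% of their length, so their separate levels are uncertain where the counting could split reads. The assembly also held 4 transcripts, counted under Dnah7b, that run on across Dnah7c (chr1:46424088-46807477), the most abundant of them at chr1:46065799-46807477 with a mean of 1114 reads per library. Of the smaller subunits, Dnali1, an inner arm light intermediate chain, stood at 89.3 ± 3.84 FPKM and the light chain Dnal4 at 57.5 ± 11.8. The outer arm intermediate chains Dnaic1 and Dnaic2 stood at 41.8 ± 2.23 and 31.4 ± 2.51 FPKM, and the light chain Dnal1 at 4.92 ± 0.232 FPKM.

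The radial spoke genes covered the widest range of any role. Rsph1, a spoke head protein, stood at 619 to 783 FPKM. Below it came Cfap206 (291), Rsph3a (169 ± 7.02), Rsph3b (157 ± 6.50), Rsph9 (95.4 ± 7.10), Rsph6a (91.2 ± 3.99), Cfap61 (17.4 ± 1.50) and Rsph14 (13.8 ± 0.568 FPKM). Rsph6a and Rsph4a encode the sperm and the ciliary version of the same spoke head subunit. Rsph6a ranged from 86.2 to 99.0 FPKM and Rsph4a from 0.0640 to 0.171 FPKM, with a mean of 27.2 reads per library, and no 100-nt stretch was shared. Within a library Rsph6a was 531 to 1381 times as high (817 ± 298). The Rsph3a and Rsph3b levels cannot be fully separated, since 60.6% of the one and 60.1% of the other lay in shared 100-nt stretches.

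The central apparatus, the machinery on the central microtubules, was led by Cfap69 at 97.8 ± 3.47 FPKM. Spag6 (71.8 ± 5.28), Spag16 (64.9 ± 3.66) and Spag17 (59.1 ± 4.88) came next, then Cfap74 (20.0 ± 1.31), Hydin (18.4 ± 1.56), Cfap46 (15.4 ± 1.28), Cfap221 (12.6 ± 0.521), Spef2 (9.57 ± 0.404) and Cfap54 (6.47 ± 0.699). Spag6 has a second copy in mouse, Spag6l, which stood at 119 ± 5.97 FPKM and shared no 100-nt stretch with it. The regulatory complex genes Drc1 and Drc7 stood at 45.6 ± 1.81 and 27.9 ± 2.93 FPKM. Ccdc39 and Ccdc40, the molecular ruler that sets the spacing along the doublet, stood at 60.9 ± 4.68 and 30.6 ± 2.88 FPKM.

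The proteins inside the doublet microtubules had a median of 81.9 FPKM over 12 genes, next to the 95.4 FPKM of the radial spoke genes. Tektins, filament proteins of the doublet wall, made up 5 of them: Tekt1 and Tekt2 (both given above), Tekt4 at 161 ± 9.14, Tekt3 at 101 ± 4.58 and Tekt5 at 71.3 ± 4.83 FPKM. Cfap45 (131 ± 5.30), Cfap126 (92.4 ± 9.37), Cfap161 (66.2 ± 3.53), Cfap20 (58.5 ± 1.94), Cfap52 (49.9 ± 3.76), Cfap53 (48.7 ± 1.92) and Cfap77 (9.59 ± 0.900 FPKM) made up the rest. Cfap20 was the steadiest of all 62 genes, with a coefficient of variation of 3.33%. The 5 genes that tether or adjust the inner arms (Cfap57, Cfap43, Cfap100, Cfap44 and Cfap73) lay between 9.08 and 56.5 FPKM. The other 5 Cfap genes (Cfap36, Cfap58, Cfap70, Cfap97 and Cfap157), which were put in no single place of the axoneme, lay between 52.5 and 260 FPKM.

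The main question of the series was what changes in the testis with age. For the axoneme the answer at gene level was that no gene passed the test. Between 3M and 18M, edgeR's quasi-likelihood test called 0 of 62 at an adjusted p of 0.05 or less with a log2 fold change of 1 or more (13 of 24605 genes and loci tested, 0.0528%), and the smallest adjusted p was 0.349. A slope on age, fitted over all 12 libraries, also called 0 of 62 (43 of 24950, 0.172%; smallest adjusted p 0.143). The steps called 0 of 62 each from 3M to 6M (0.0611% of all), from 6M to 12M (0.0325%) and from 12M to 18M (0.0203%). DESeq2, the second tool, called 1 gene in the slope, Dnah2 at an adjusted p of 0.0224 (1.89% of all tested). With the adjusted p alone and no minimum change it called 1 gene between 3M and 18M, Dnaic2 at an adjusted p of 0.0469 (1.03%). In this bulk tissue, fewer cells of a type and less RNA per cell cannot be told apart.

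The changes were small: between 3M and 18M the log2 fold changes ran from −0.33 (Dnah17) to 0.43 (Dnal4). Of the 62 genes, 42 had a lower and 20 a higher mean at 18M, with a median of −0.07 against 0.01 over all genes and loci tested. At an unadjusted p of 0.05 or less, edgeR counted 20 of 62 lower (6.34% of all genes tested) and 2 higher (5.69%), and DESeq2 counted 21 and 2. In the slope edgeR counted 16 lower (8.19%) and 5 higher (7.21%), and DESeq2 the same numbers. At the same level of p the steps held 5 genes from 3M to 6M (3.94%; DESeq2 6), 8 from 6M to 12M (7.49%; DESeq2 7) and 0 from 12M to 18M (3.56%; DESeq2 0). In 20 genes every 18M library lay below every 3M library (9.86% of all tested), and in 3 every one lay above (9.75%). The 2 ages share no library, but both enter the slope as well, so these counts are not separate evidence.

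None of the dynein heavy chains passed the test. All 9 heavy chains at 1 FPKM or more had a lower mean CPM at 18M than at 3M, with a median log2 fold change of −0.26. In 7 of them the mean CPM of the 3 libraries was lower at every step of age. On the FPKM scale Dnah7b and Dnah7c were not lower. Dnah7b stood at 19.9 ± 3.99 FPKM at 3M and 20.3 ± 1.76 at 18M, and Dnah7c at 12.9 ± 3.51 and 13.5 ± 0.638. The third 3M library had the highest Dnah7b (246 CPM) and the lowest Dnah7c (101 CPM), copies whose separate levels are uncertain. Summed over the 9 chains, the 3M libraries held 2962, 3588 and 3234 CPM, the 6M libraries 3315, 3274 and 2737, the 12M libraries 2854, 3326 and 2546 and the 18M libraries 2962, 2670 and 2527. The highest 18M library thus lay under the lowest 3M library by less than 1 CPM, and each middle age had libraries on both sides. The means were 3261 ± 314 CPM at 3M and 2719 ± 222 CPM at 18M (SD, n = 3). The 3 low ciliary chains had log2 fold changes of −0.04 (Dnah5), −0.02 (Dnah9) and 0.03 (Dnah11).

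Dnah2, the inner arm chain, had the smallest p of the slope among the 62. Its CPM was 309, 381 and 325 at 3M, 351, 331 and 286 at 6M, 291, 316 and 293 at 12M and 294, 261 and 272 at 18M. Every 18M library lay below every 3M library, while 6M and 12M overlapped with both. The slope was −0.020 ± 0.0052 log2 units per month (SE; edgeR adjusted p 0.143), and the log2 fold change from 3M to 18M was −0.30 ± 0.09 (adjusted p 0.354).

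Dnah17 had the lowest log2 fold change, −0.33 ± 0.11 (edgeR adjusted p 0.365). Its CPM was 554, 681 and 630 at 3M and 567, 470 and 453 at 18M, so that 1 old library lay above 1 young one. For Dnah8 the values were 1101, 1354 and 1159 CPM at 3M against 1093, 1001 and 939 at 18M, which did not overlap by a narrow margin. The change of Dnah8 was −0.25 ± 0.09 (adjusted p 0.378). Dnah10 (−0.31 ± 0.11), Dnah7b (−0.27 ± 0.13), Dnah6 (−0.26 ± 0.09) and Dnah1 (−0.26 ± 0.08) were close to these, with adjusted p between 0.359 and 0.443. Of these 4, Dnah1 alone had 3M libraries (235, 279 and 265 CPM) that all lay above the 18M libraries (233, 218 and 200 CPM).

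Dnaic2, which encodes an intermediate chain at the base of the outer arm, had the smallest p between 3M and 18M. Its CPM was 99.7, 108 and 112 at 3M, 96.0, 102 and 89.0 at 6M, 89.8, 97.2 and 87.2 at 12M and 90.5, 93.2 and 89.9 at 18M. The 3M libraries lay above all 18M libraries. The log2 fold change was −0.23 ± 0.05 (edgeR adjusted p 0.349) and the slope −0.014 ± 0.0042 per month (adjusted p 0.183). Its partner Dnaic1 changed by −0.10 on the log2 scale, with overlapping libraries.

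The long genes of other roles had values of the same sign. Cfap43, of the inner arm tether, went from 386, 407 and 425 CPM at 3M to 358, 377 and 361 at 18M (log2 fold change −0.16 ± 0.05), but with exact-match transcripts alone the value was 0.42 and with the length offset described below −0.046. Cfap46, of the central apparatus, went from 168, 174 and 162 to 148, 151 and 153 CPM (−0.16 ± 0.04). Neither overlapped, and neither passed the test (edgeR adjusted p of the slope 0.206 and 0.243). In the central apparatus 8 of 10 genes were lower at 18M and 4 did not overlap. The 4 genes grouped as regulatory complex and ruler (Drc1, Drc7, Ccdc39 and Ccdc40) were all lower and 3 did not overlap. Axoneme parts under other names, given further below, are not counted in this group. They include further parts of the complex and went both ways. The mean CPM was higher at 18M than at 3M for Ccdc65, Gas8, Iqca, Iqcd and Fbxl13 and lower for Tcte1, Iqcg and Lrrc48. In the radial spokes 6 of 9 were lower and 2 did not overlap. Over all genes tested 9.86% were lower without overlap, and over those longer than 8000 nt 21% were.

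The tektins had higher means at 18M than at 3M, but none passed the test and all 5 had a lower mean at 18M than at 12M. Their median log2 fold change between 3M and 18M was 0.12, and 3 of them (Tekt2, Tekt4 and Tekt5) had an unadjusted p of 0.05 or less in the slope, where 7.21% of all genes were higher at that level. The summed tektin CPM was 1257, 1202 and 1345 at 3M, 1298, 1272 and 1280 at 6M, 1414, 1361 and 1415 at 12M and 1339, 1405 and 1376 at 18M. The 3M and 18M libraries overlapped at their edge. Tekt2 had 317, 294 and 351 CPM at 3M and 355, 365 and 358 at 18M, with no overlap, a log2 fold change of 0.16 ± 0.07 (edgeR adjusted p 0.413) and a slope of 0.012 ± 0.0037 per month (adjusted p 0.184).

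Outside the tektins, Cfap100, which modifies inner arms, had 99.6, 88.7 and 104 CPM at 3M and 107, 111 and 107 at 18M. Cfap77, a small doublet protein, had 17.2, 17.2 and 19.6 CPM at 3M and 19.6, 21.8 and 20.7 at 18M. Both were higher without overlap, the second by a narrow margin, with log2 fold changes of 0.15 ± 0.07 and 0.20 ± 0.08 (edgeR adjusted p 0.429 and 0.408). With exact-match transcripts alone Cfap100 was at −0.0455. Spag6 was at 0.16 ± 0.09 with overlapping libraries. Dnal4 had the largest positive value, 0.43 ± 0.32, but its libraries held 84.3, 47.5 and 51.3 CPM at 3M and 50.4, 100 and 97.2 CPM at 18M, so that each age had libraries at both levels.

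**Figure D3:**
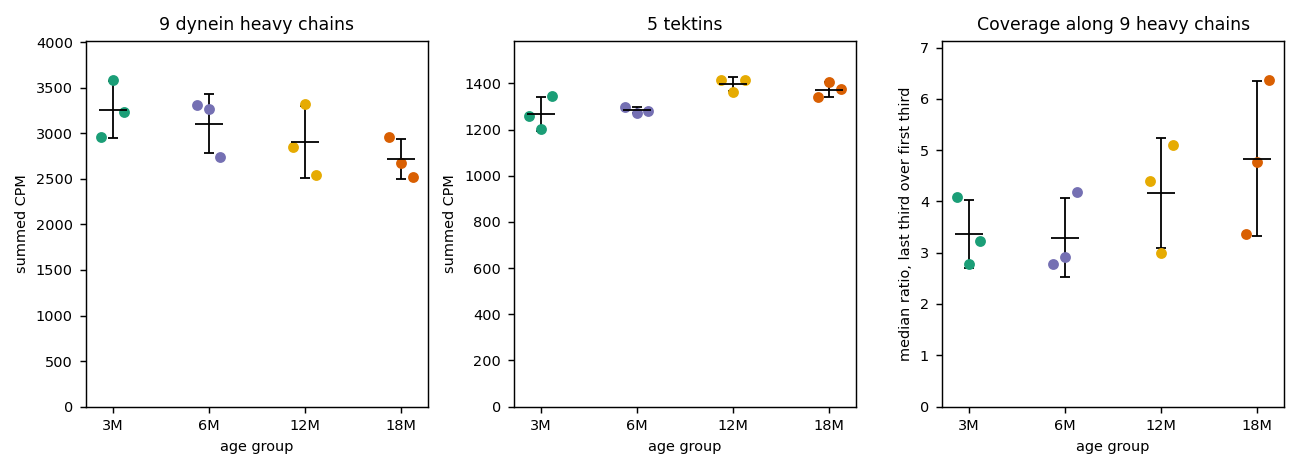
Summed CPM of the 9 dynein heavy chains at 1 FPKM or more and of the 5 tektins, and the ratio of coverage in the 3′ to the 5′ of 3 equal parts of the heavy chains. Points are libraries, bars are the mean ± SD of 3 libraries. Heavy chain CPM has a lower mean at 18M than at 3M, with the highest 18M library just under the lowest 3M library, while tektin CPM and the coverage ratio have higher means, with overlapping libraries.

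Transcript length moved with these values. By read-weighted length, the 17 axoneme genes over 8000 nt had a median log2 fold change of −0.17 between 3M and 18M, and 16 of them were lower. All 868 genes with a symbol over 8000 nt had a median of −0.12, and 77.9% of them were lower. The 20 axoneme genes under 2000 nt had a median of 0.04, against 0.06 for all 5998 genes of that length. In between, the medians were −0.09 against −0.02 at 2000 to 4000 nt and −0.11 against −0.07 at 4000 to 8000 nt. Of the 17 long axoneme genes, 8 had no overlap and a lower level at 18M, and of all 1070 genes and loci over 8000 nt 21% did. The step from 6M to 12M showed the same order of lengths over all genes, with medians from 0.04 under 2000 nt to −0.08 over 8000 nt. From 12M to 18M the order was the same, from 0.02 to −0.05. From 3M to 6M the medians over all genes lay between −0.01 and 0.01. The 17 long axoneme genes had medians of −0.06 from 3M to 6M (12 lower), −0.10 from 6M to 12M and −0.09 from 12M to 18M.

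Coverage along the transcript moved with it too. The median ratio of coverage in the 3′ part to that in the 5′ part over the 9 heavy chains was 4.08, 2.77 and 3.23 in the 3M libraries, 2.78, 2.92 and 4.18 at 6M, 4.41, 2.98 and 5.09 at 12M and 3.36, 4.77 and 6.37 at 18M. The library with the highest ratio, the third 18M library, had the lowest heavy chain sum (2527 CPM). The one with the lowest ratio, the second 3M library, had the highest (3588 CPM). Over the 851 other genes longer than 8000 nt these libraries deviated by −0.11 and 0.11 log2 units from the mean of the 12. The largest deviation was −0.15, in the third 12M library. Ratio and sum come from the same reads of the 9 chains, so they are not separate measures. The first 3M and the first 18M library had the same sum, 2962 CPM, at ratios of 4.08 and 3.36. When a smooth curve of deviation on length was taken out of each library, an alternative added after the data were seen, 10 axoneme genes were lower and 1 higher at an unadjusted p of 0.05 or less between 3M and 18M, and 1 lower and 4 higher in the slope. In either direction these were 11 of 62, where 10% of all genes tested passed, and 5 of 62, where 12.9% did. The shares over all genes were not split by direction under this offset, so the 10 lower genes have no matching share. Under this offset the log2 fold change was −0.16 for Dnah2 (unadjusted p 0.0248, edgeR), −0.21 for Dnah17 and −0.21 for Dnaic2, while the slope of Dnah2 had an unadjusted p of 0.163. Cfap43 came to −0.046 (unadjusted p 0.462) and Cfap46 to −0.049 (unadjusted p 0.335), and the median of the 9 heavy chains went from −0.26 to −0.14. The median over the 62 genes was −0.05 between the ages, and 8 of the 9 heavy chains had a lower mean at 18M, Dnah7c being the other one. The median of the 5 tektins went from 0.12 to 0.07. Tekt2 came to 0.11 (unadjusted p 0.121, edgeR), and its slope had an unadjusted p of 0.0221.

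**Figure D4:**
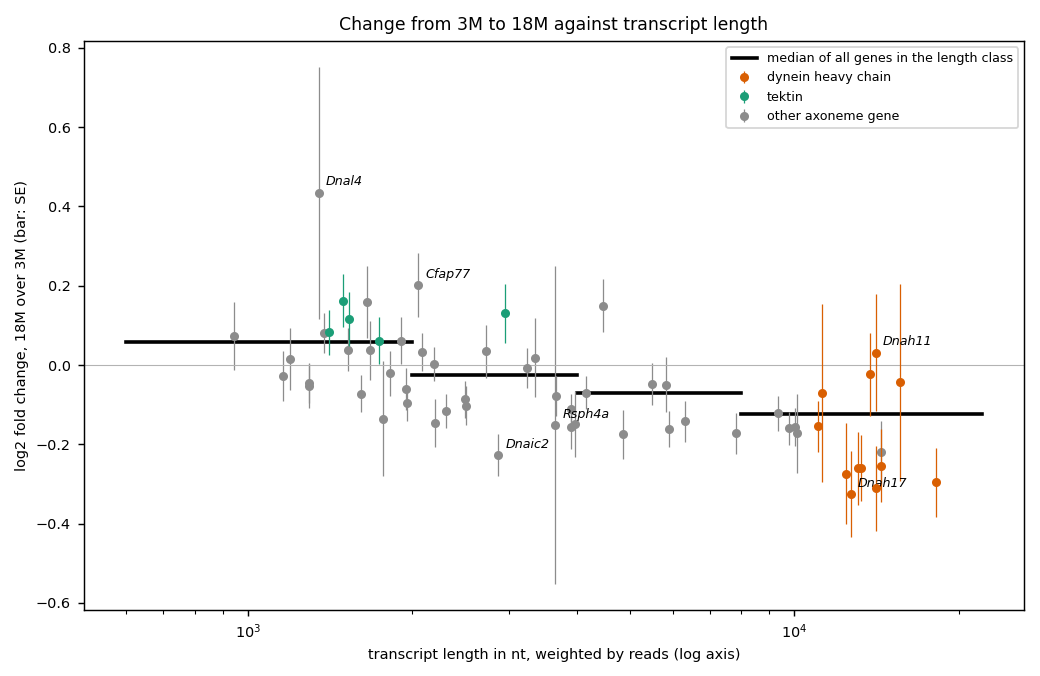
Log2 fold change from 3M to 18M (bars are SE) of the 62 genes against read-weighted transcript length on a log axis. Black lines are medians of all genes with a symbol in 4 length classes. The heavy chains lie mostly below the line of their class and the tektins at or above theirs.

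The marker sums of some cell types differed between 3M and 18M. The round spermatid markers summed to 776 to 936 CPM at 3M and 1046 to 1061 CPM at 18M. In the slope 5 of 6 were higher at an unadjusted p of 0.05 or less, as were 7.21% of all genes tested. None of them was called (edgeR adjusted p 0.102 to 0.506). The elongating spermatid markers overlapped, with 12222 to 13557 CPM at 3M and 12585 to 15257 CPM at 18M. The Leydig cell markers summed to 870 to 1046 CPM at 3M and 554 to 760 CPM at 18M. Cyp17a1 and Cyp11a1, both steroid-making enzymes, were called lower in the slope (edgeR adjusted p 0.000118 and 0.00507). Hsd3b1, of the same list, had a higher mean at 18M (40.7 ± 12.6 CPM) than at 3M (33.6 ± 3.69 CPM). Spermatocyte markers stayed within 753 to 837 CPM in all libraries. The third 6M library was the highest in Leydig (1316 CPM) and Sertoli cell markers (1062 CPM), and it was also the lowest 6M library in heavy chains. Spermatogonia markers summed to 68.6 to 81.2, macrophage markers to 9.96 to 18.5 and peritubular and endothelial markers to 81.8 to 115 CPM. The part of these markers in the axoneme values was not tested.

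Other genes of the flagellum, listed by role, gave no called gene in the slope either. At an unadjusted p of 0.05 or less 7.21% of all genes tested were higher and 8.19% lower. Of 6 dynein docking genes 1 had an unadjusted p of 0.05 or less, Ccdc63, a docking factor of sperm, upward (231 ± 13.3 CPM at 3M and 252 ± 5.82 at 18M). Of 12 dynein assembly factors 2 were lower at that level, Zmynd10 and Dnaaf5, and 1 higher, Ccdc103. Of 19 axoneme parts under other names 4 were higher, Dnajb13 and Ropn1l (both radial spoke proteins), Nme5 and Iqcd, and none lower. Of 8 genes of the outer dense fibres and fibrous sheath, the sleeve around the axoneme, 4 were higher: Odf1, Odf3, Odf4 and Ropn1. Among 7 transcription factors Crem was higher and Mybl1, a factor of meiotic cells, lower. All these had adjusted p between 0.140 and 0.308 in edgeR.

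At the level of transcripts, edgeR called none of the 218 axoneme transcripts tested between 3M and 18M (0.108% of 54472 transcripts; smallest adjusted p 0.234) and none of 226 in the slope (0.00881% of 56784; smallest adjusted p 0.156). At an unadjusted p of 0.05 or less it counted 28 and 20 of them, against 5.4% and 6.99% of all transcripts tested. DESeq2 called 16 between the ages (1.9% of 66290), in 10 genes, 4 higher and 12 lower at 18M, and 4 in the slope (1.58% of 68030). Of the 16, 4 had 0 reads in at least 1 library of these ages. Without the second 3M library edgeR called 1 transcript, an assembled isoform of Ccdc39, and without the third 18M library 1, the reference transcript of Dnah17.

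An isoform of Dnah8 had the smallest p of the slope. Its reference transcript (chr17:30626936-30875264 on mm10, 93 exons) held 48653, 63385 and 53754 reads at 3M and 39521, 26793 and 40239 at 18M. An assembled isoform that starts upstream, at 30623670, held 462, 178 and 317 reads at 3M, 326, 105 and 113 at 6M, 1741, 385 and 890 at 12M and 9543, 3101 and 18168 at 18M. In shares of the gene's reads it went from 0.231% to 0.800% at 3M to 5.89% to 27.1% at 18M, with no overlap. The log2 fold change between these ages was 4.78 ± 0.74 (edgeR adjusted p 0.282; DESeq2 adjusted p 6.74e-12), and the slope had an adjusted p of 0.156 in edgeR and 2.81e-07 in DESeq2.

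The first exon of this isoform (chr17:30623670-30624444), in which a second assembled isoform also starts, did not rise in the same measure. Its estimated coverage for the isoform was 3.81, 3.42 and 3.20 reads per base at 3M and 5.03, 2.66 and 8.81 at 18M. Over the same libraries the coverage assigned to the whole isoform went from 3.05, 1.18 and 2.09 to 63.1, 20.5 and 120 reads per base. In the third 18M library the isoform as a whole was thus assigned 120 reads per base and its upstream exon 8.81. Counting the second assembled isoform, which starts within this exon, the upstream coverage was 17.0, 29.5 and 32.7 at 3M and 16.4, 18.0 and 12.4 at 18M. The first exon of the reference isoform had 33.3 reads per base in the third 18M library. Coverage of Dnah8 was low at the 5′ end in general, with means of 177 reads per base in the 5′ part and 801 in the 3′ part. A low first exon is thus not particular to this isoform.

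**Figure D5:**
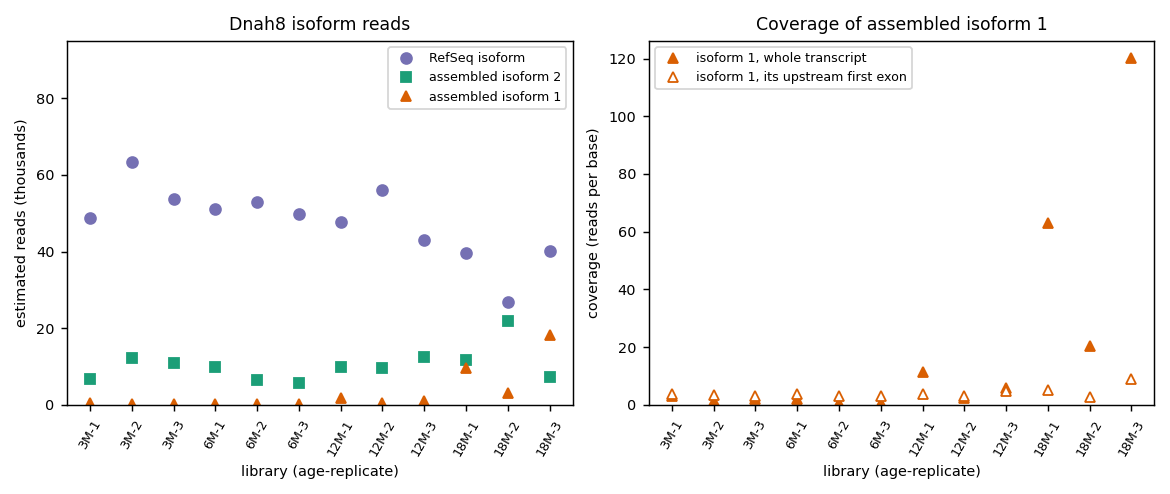
Estimated reads of the 3 main Dnah8 isoforms by library, and coverage in reads per base of assembled isoform 1 over its whole length and over its upstream first exon. The whole-isoform coverage reaches 120 in the third 18M library, while the first exon stays under 9 in all libraries.

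The other 4 transcripts with the smallest p between 3M and 18M were the Dnah8 reference transcript (log2 fold change −0.76 ± 0.15) and isoforms of Cfap74 (−3.05 ± 0.44), Ccdc40 and Cfap97 (−1.64 ± 0.41), with edgeR adjusted p of 0.234 to 0.790. The Ccdc40 reference transcript held 232, 4513 and 4436 reads at 3M and 0 in all 18M libraries, but also 0 in 2 of 3 libraries at 6M and at 12M. Its gene as a whole held 164 ± 12.6 CPM at 3M and 145 ± 3.56 CPM at 18M. In Ccdc39 an assembled isoform held 5214, 183 and 5947 reads at 3M, 170, 180 and 4239 at 6M, 6518, 5646 and 5200 at 12M and 168, 177 and 268 at 18M, so that 3M and 6M each held libraries at both a high and a low level. A second Ccdc39 isoform held 1148, 11370 and 173 reads in the 3M libraries in the same order and 11061, 10289 and 14275 at 18M. The Ccdc39 gene level was 271 ± 3.00 CPM at 3M and 259 ± 10.5 CPM at 18M. Of the 252 axoneme transcripts, 64 had over 1000 reads in a library and a range of 10-fold or more across the 12 libraries.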

How the data were processed

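The samples were 12 mouse testis libraries, and each was given its age group by its label. The authors depleted ribosomal RNA, made paired-end libraries without strand information, aligned with HISAT2 (genome mm10) and used StringTie 1.3.3b, the version per the file headers, to assemble, merge and quantify transcripts. They deposited estimated counts per transcript, rounded to whole numbers, FPKM values scaled by transcript length and mapped fragments but not normalized between libraries, and the assembly of each library with the coverage of every exon. Estimated counts divide reads among isoforms, so gene sums are firmer than isoform values.

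Counts were summed per gene over transcripts of class =, c, j or o, and other transcripts were fitted as loci of their own. Fits were made over all genes and loci with edgeR 4.0.16 (R 4.3.3; quasi-likelihood test with TMM normalization, filterByExpr, Benjamini-Hochberg adjustment over all features tested). All 62 genes passed the filter on low counts. A pairwise fit held the 6 libraries of both ages and a call asked for a log2 fold change of at least 1 besides an adjusted p of 0.05 or less. The slope on age in months used all 12 libraries and the adjusted p alone. DESeq2 1.42.0 was the second tool, and adjusted p values that it left empty were not counted. The fits were run on simulated counts with known log2 fold changes of at least 1 in size. Smaller changes, such as those of the axoneme genes, were not simulated. CPM used TMM-scaled library sizes. The labels do not say that libraries came from separate mice, but the paper calls them biological replicates. The p-values measure the spread between these libraries. Python 3.11.15 with pandas 2.3.3, numpy 2.4.6 and matplotlib 3.10.9 served for the rest.

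Named are all dynein heavy chains, tektins, radial spoke, central apparatus and regulatory complex genes, the 5 highest and 5 lowest levels, the 8 smallest p of the slope, the 5 largest falls and 5 largest rises from 3M to 18M at a mean CPM of 1 or more, called genes, and the 5 transcripts with the smallest p at that level. Other genes named with values (Dnah8 and Dnaic1 in the comparison of ages, isoforms of Ccdc39) were added after their values were seen. The genes and the lists were chosen with earlier results of these data known. Alternatives were other normalizations, no filter, DESeq2, unadjusted p, a replicate block, other transcript classes, all libraries in a pairwise fit and each library left out in turn. A length offset was added after the data were seen: per library, a smoothing spline of 6 degrees of freedom of the log2 CPM deviation on log2 length.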

Additional observations from a re-analysis of the deposited data

Results flagged for a closer look

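Transcripts that the axoneme gene sums did not use held signal over 4 of the axoneme genes. In the gene fits they were counted apart from these genes. The gene sums left out 11 transcripts that lie inside an intron of such a gene or overlap it on the opposite strand, and 5 of these had more than 3 reads in every library. There were no control samples against which to set them. A transcript on the opposite strand of Rsph14 had a mean of 311 reads per library (244 to 441), one of Cfap73 a mean of 210 (140 to 309) and one of Dnah7b a mean of 156 (31 to 320). Intronic transcripts had a mean of 139 reads in Dnah6 (106 to 182) and 26.1 in Cfap73 (16 to 46). The libraries carry no strand information, so reads of a gene and of a transcript opposite to it cannot be told apart where they overlap.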

How the results depend on the processing

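The count of 0 axoneme genes called held in each of the 5 gene tests under the other normalizations, without the low-count filter, with exact-match transcripts only, with all transcript classes, with a replicate block and with each library left out in turn (0 to 0). With DESeq2 the slope had 1 call and, with the adjusted p alone, the comparison of 3M with 18M 1. Unadjusted p gave 21 in the slope and, without the minimum change, 22 between 3M and 18M. For transcripts the counts were 16 and 4 with DESeq2 and 10 and 20 with unadjusted p (3M against 18M, with the minimum change, and slope), 0 with the replicate block, and 0 to 1 between 3M and 18M and 0 to 0 in the slope with each library left out. The labels give no meaning to the replicate numbers, and same-numbered libraries did not deviate together (correlations of −0.056 to 0.055), so the block pairs nothing by design. Over all genes the replicate block gave 0 calls in place of 13 between 3M and 18M and 22 in place of 43 in the slope. The median level of the 62 genes was 18.7 FPKM from exact-match transcripts only, against 47.1, because assembled isoforms then drop out, and 27 genes moved by over 1.5 times (Dnah2 and Dnah7b to 0.0022 and 0.0020 FPKM). Directions turned with exact-match transcripts for Cfap43 (log2 fold change 0.42 between 3M and 18M) and Cfap100 (−0.0455, and −0.00202 per month), and with the length offset for the slope of Cfap46 (7e-05). The median change of the 62 genes kept its sign with each library left out between 3M and 18M (−0.09 to −0.04) and in the slope. From 6M to 12M it ran from −0.05 to 0.04, positive without the first or the second 6M library or the third 12M library. With exact-match transcripts only it was 0.0211 in this step (58 genes tested). With 3 libraries an age, differences of the size seen here lie near the spread between libraries.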
